A study of Homo sapiens with 34 samples.

Results

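The Iroquois homeobox family, IRX1 to IRX6, was followed in human ESCs that were differentiating along the cardiac lineage and in which a cardiac regulator was depleted. The members were the 6 family symbols among the 23189 gene symbols of the deposited read counts, and the RefSeq transcript with the largest total stood for each gene. All 6 were found, under the transcripts NM_024337 (IRX1), NM_033267 (IRX2), NM_024336 (IRX3), NM_016358 (IRX4), NM_005853 (IRX5) and NM_024335 (IRX6). Over all libraries their totals were 9456 counts for IRX1, 35505 for IRX2, 6376 for IRX3, 11578 for IRX4, 2334 for IRX5 and 470 for IRX6, so IRX6 was the least sampled member.

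H1 cells, an established human ESC line, were transduced with lentiviral shRNA vectors and selected with puromycin. WT stands for control H1 cells that carried an empty vector or a GFP shRNA, so every group had been transduced. NKX2-5 shRNA, ZEB2 shRNA and ZNF503 shRNA each denote 1 line, made with a vector chosen for its knockdown out of several tested. In the differentiation of every line the GSK3β inhibitor CHIR99021 was given first, the Wnt inhibitor IWP2 followed, and insulin came last. Cells of day 0 had received neither inhibitor, and insulin was added to the differentiation medium only after day 6. Libraries of WT and of all 3 shRNA lines were used at days 0, 2 and 6, while for day 10 the ZNF503 line was not analysed here. Each of the 15 groups was used with 2 libraries, which were replicates 3 and 4 for WT and ZEB2 shRNA cells at day 10 and replicates 1 and 2 elsewhere. The submitters call these biological replicates, but no label ties them to separate cultures, so p-values measure the spread between these libraries. At day 10 the NKX2-5 shRNA line was compared with replicates of other numbers. So were WT and ZEB2 shRNA cells of day 10 with their earlier days. No label says whether replicates 3 and 4 were made apart from 1 and 2. A difference between these sets could not be told apart there from that of line or day.

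Iroquois proteins are transcription factors of the TALE class of homeodomain proteins, in which the loop between the first helices of the homeodomain is extended. In the human genome the genes lie in a pair of clusters that arose by duplication. In the heart IRX4 is a ventricular marker, IRX3 is active in the ventricular conduction system, IRX5 shapes potassium channel expression across the ventricular wall, and IRX1 and IRX2 are found in ventricular septum, while less is known of IRX6 in the heart. Outside the heart the family patterns neural tissue, limb, lung and kidney.

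In the GRCh37 build, to which the reads were mapped, IRX4 lies at chr5:1877527-1887350 on the minus strand, IRX2 at chr5:2745959-2751791 on the minus strand and IRX1 at chr5:3595946-3601517 on the plus strand. IRX3 lies at chr16:54317216-54320699 on the minus strand, IRX5 at chr16:54964777-54968397 on the plus strand and IRX6 at chr16:55358115-55364668 on the plus strand. Reads were counted in RefSeq gene regions, and whether introns were included is not given in the sources used here. Annotated exons held 2080 bases in IRX1, 3399 in IRX2, 2935 in IRX3, 2974 in IRX4, 2842 in IRX5 and 2952 in IRX6. Whole spans were 5572 bases in IRX1, 5833 in IRX2, 3484 in IRX3, 9824 in IRX4, 3621 in IRX5 and 6554 in IRX6.

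The chromosome 5 genes were expressed at day 0 in every line, before any cardiac induction. The sequence before their annotated start sites is shown, since windows were at hand for these members only. The RefSeq table of promoters (GRCh38.p14, a later build than that of the reads) held 3 of the 6 members, while IRX3, IRX5 and IRX6 are named only. The windows are the 250 bases before the start of IRX4 at chr5:1887180-1887429 on the minus strand, of IRX2 at chr5:2751678-2751927 on the minus strand and of IRX1 at chr5:3595582-3595831 on the plus strand, each written 5′ to 3′ on the strand of its gene, with CG dinucleotides in capitals.
IRX4: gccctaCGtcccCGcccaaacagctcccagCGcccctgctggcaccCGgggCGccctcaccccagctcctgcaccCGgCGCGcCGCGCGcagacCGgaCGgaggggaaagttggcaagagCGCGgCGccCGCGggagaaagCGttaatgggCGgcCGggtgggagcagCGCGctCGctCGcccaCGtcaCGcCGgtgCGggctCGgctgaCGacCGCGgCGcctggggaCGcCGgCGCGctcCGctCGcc
IRX2: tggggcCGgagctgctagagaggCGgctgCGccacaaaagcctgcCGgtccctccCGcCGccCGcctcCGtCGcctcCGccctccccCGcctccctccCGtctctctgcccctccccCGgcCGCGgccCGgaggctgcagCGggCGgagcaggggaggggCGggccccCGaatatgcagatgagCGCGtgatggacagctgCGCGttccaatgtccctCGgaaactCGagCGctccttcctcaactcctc
IRX1: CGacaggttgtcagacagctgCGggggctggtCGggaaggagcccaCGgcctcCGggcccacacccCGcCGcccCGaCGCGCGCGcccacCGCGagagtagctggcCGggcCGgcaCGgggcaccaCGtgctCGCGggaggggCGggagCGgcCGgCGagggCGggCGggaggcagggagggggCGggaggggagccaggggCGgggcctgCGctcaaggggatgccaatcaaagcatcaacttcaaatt
The IRX4 window held 40 CG dinucleotides, the IRX2 window 27 and the IRX1 window 29, where the median of 35116 windows of the same length was 11. Of all windows, 98.3% held no more than IRX4, 84.1% no more than IRX2 and 87.6% no more than IRX1. The share of G and C bases was 77.6% in IRX4, 72.8% in IRX2 and 75.2% in IRX1, against a median of 58%. The core bound by NKX2-5-like proteins, AAGTG, was searched on both strands and was in none of the 3 printed windows, and 37.6% of all windows hold it. The E-box of ZEB proteins, CACCTG, was likewise in none of them, and 17.5% of all windows hold it. The site of GATA factors, AGATAA, was in none of them either, and 9.17% of all windows hold it. Of 3 IRX4 windows in the table, the window at chr5:1886946-1887195 held the E-box once. A match or its absence describes the letters of the window and nothing else.

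In the 30 libraries used, counts over genes summed to between 38772103 and 90814577 at day 0, 14630405 and 87850810 at day 2, 13807473 and 61514547 at day 6, and 9189943 and 29549874 at day 10. Levels are given as CPM, counts relative to the TMM-normalized size of the library, and where a library had no count the level could still have been as high as 3 counts, or 0.033 to 0.326 CPM by library. Such limits cover counting error only. NKX2-5 was at 84.2 and 50.4 CPM in WT cells at day 6 and at 0.993 and 0.761 CPM in NKX2-5 shRNA cells (log2 fold change -6.30, SE 0.30, adjusted p = 9.6e-09). The ZEB2 gene was at 96.8 and 94.1 CPM in WT cells at day 6 and at 54.6 and 57.1 CPM in ZEB2 shRNA cells (-0.77, SE 0.12, adjusted p = 0.00136), but its differences of -0.63 at day 2 (SE 0.17, adjusted p = 0.185) and -1.02 at day 10 (SE 0.34, adjusted p = 0.0793) did not pass the test. The ZNF503 gene was at 8.71 and 9.33 CPM in WT cells at day 6 and at 0.611 and 0.648 CPM in ZNF503 shRNA cells (-3.84, SE 0.29, adjusted p = 6.3e-07). At day 2, however, ZNF503 was at 1.09 and 1.96 CPM in WT cells and at 0.999 and 1.75 CPM in the libraries labelled ZNF503 shRNA, so these groups overlapped (adjusted p = 0.714). Both at day 6 and at day 10 the NKX2-5 gene was also lower in ZEB2 shRNA cells (adjusted p = 0.0198 and 0.0359), and ZNF503 was lower in NKX2-5 shRNA cells at day 6 (-3.55, adjusted p = 4.4e-07). In ZNF503 shRNA cells NKX2-5 was at 2.9 and 2.07 CPM at day 6 (-4.78, SE 0.28, adjusted p = 7.1e-08). The ZEB2 gene was at 20.5 CPM in both NKX2-5 shRNA libraries of day 6 (-2.22, SE 0.13, adjusted p = 4.7e-08) and at 10.9 and 12.7 CPM in ZNF503 shRNA cells (-3.01, SE 0.14, adjusted p = 8e-09), below its level in the ZEB2 shRNA line. At day 10, however, it was at 64.3 and 144 CPM in NKX2-5 shRNA cells and 117 and 105 CPM in WT. ZNF503 was then at 3.72 and 13.1 CPM in NKX2-5 shRNA cells and 25.3 and 24.6 CPM in ZEB2 shRNA cells. WT cells of day 10 held 5.41 and 10.1 CPM of ZNF503.

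The first comparison follows the family through normal differentiation. In WT cells IRX3 and IRX5 were switched on between days 0 and 2, IRX2 and IRX4 declined between days 2 and 6, and IRX4 returned at day 10. A gene is said to have changed when it passed 5% FDR in edgeR's quasi-likelihood test, with adjustment over all genes tested. From day 0 to day 2, 3 of 6 members changed where 44.1% of all genes did, from day 2 to day 6 there were 2 of 6 against 49.8%, and from day 6 to day 10 there were 2 of 6 against 57.5%. The family's share was thus near or below that of all genes at each step. The sizes of the changes were not set against those of all genes.

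IRX3, which in the mouse heart represses and activates genes for impulse conduction, was at 0.32 and 0.209 CPM (12 and 8 counts) in WT cells at day 0, 13.2 and 15.8 CPM at day 2, 18.6 and 11.5 CPM at day 6, and 23.6 and 39.7 CPM at day 10. Day 0 lay far below all later days, days 2 and 6 overlapped, and day 10 lay above both. IRX3 rose from day 0 to day 2 by 5.80 on the log2 scale (SE 0.43, adjusted p = 4.9e-06). It rose again from day 6 to day 10 by 1.10 (SE 0.29, adjusted p = 0.00915), a call that was lost without WT day 6 replicate 2 (adjusted p = 0.0818) or WT day 10 replicate 4 (adjusted p = 0.0596).

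IRX5, its neighbour on chromosome 16, was at 0.347 and 0.34 CPM at day 0, 3.92 and 4.23 CPM at day 2, 6.5 and 4.76 CPM at day 6, and 6.5 and 9.79 CPM at day 10. Day 0 lay below all later days, and days 2 and 6 did not overlap. The rise from day 0 to day 2 was 3.59 (SE 0.36, adjusted p = 3.7e-05), and neither later step passed the test (0.44, SE 0.28, adjusted p = 0.222 and 0.55, SE 0.28, adjusted p = 0.122, and 0.0334 without WT day 10 replicate 3). IRX6, the third gene of this cluster, never exceeded 0.753 CPM in WT cells, with 0.187 CPM and no count in the 2 libraries of day 0, 0.289 and 0.429 CPM at day 2, 0.607 and 0.481 CPM at day 6 and 0.309 and 0.753 CPM at day 10.

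IRX4 had the most varied course in WT cells. It was at 12.3 and 10.3 CPM at day 0, 9.55 and 8.89 CPM at day 2, 2.47 and 2.62 CPM at day 6, and 37.1 and 78.6 CPM at day 10. The lowest values were those of day 6 and the highest those of day 10, with no overlap between neighbouring days. IRX4 fell from day 2 to day 6 by 1.87 on the log2 scale (SE 0.33, adjusted p = 0.00103) and rose from day 6 to day 10 by 4.52 (SE 0.34, adjusted p = 5.6e-06), which was 3.87 without WT day 10 replicate 4.

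IRX2 was the most abundant member in undifferentiated WT cells, at 42.8 and 39.1 CPM, and was at 28.8 and 26.4 CPM at day 2, 5.16 and 5.89 CPM at day 6, and 2.94 and 6.02 CPM at day 10. Its largest step was a fall of 2.34 from day 2 to day 6 (SE 0.24, adjusted p = 2.6e-05), after which days 6 and 10 overlapped. IRX1 was at 12.7 and 10.4 CPM at day 0, 5.53 and 5.15 CPM at day 2, 3.86 and 3.46 CPM at day 6 and 1.6 and 3.98 CPM at day 10. IRX1 fell from day 0 to day 2 by 1.06 (SE 0.32, adjusted p = 0.0203), a call that was lost without WT day 0 replicate 1 (adjusted p = 0.123) or WT day 2 replicate 1 (0.0957) or 2 (0.111). From day 0 to day 10, IRX2 fell by 3.22 (SE 0.27, adjusted p = 1.9e-06) and IRX1 by 2.10 (SE 0.36, adjusted p = 0.00037), while IRX3 rose by 6.93 (SE 0.43), IRX5 by 4.59 (SE 0.36) and IRX4 by 2.41 (SE 0.30). Without WT day 10 replicate 4 the change of IRX1 was -2.81 and that of IRX4 1.76, and without WT day 10 replicate 3 that of IRX1 was -1.47. Over this span 5 of 6 members changed, where 73.8% of all genes did, and from day 0 to day 6 there were 6 of 6 against 60.9%. The IRX6 call from day 0 to day 6, with 7 and 0 counts at day 0, was lost in DESeq2 (2.52, adjusted p = 0.086). It was also lost when some single libraries were left out, and its value was 1.52 without WT day 0 replicate 2.

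**Figure D1:**
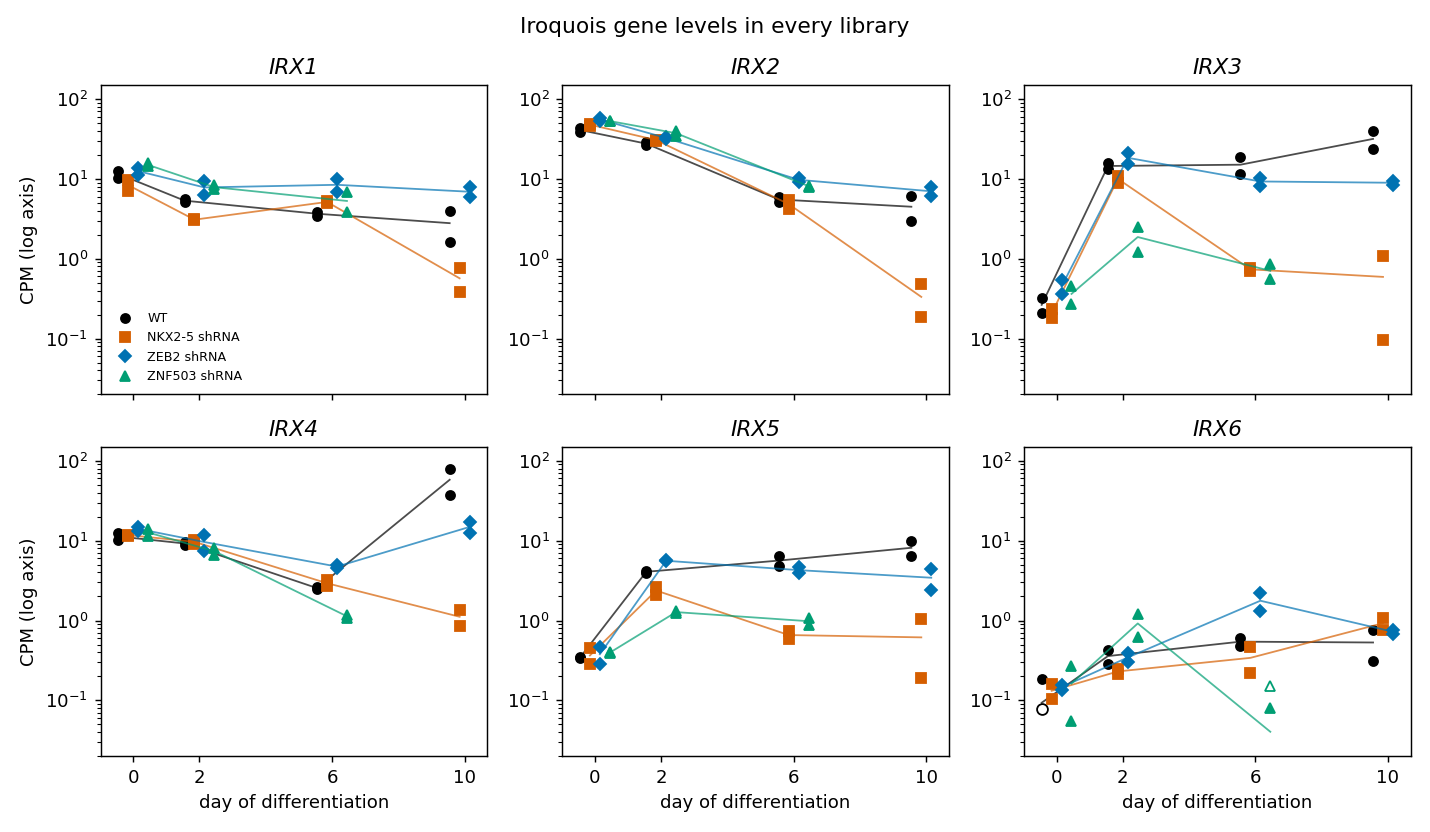
Level of each Iroquois gene (CPM, log axis) against the day of differentiation, with a point for every library, a line through the group means and open symbols for libraries with 0 counts, drawn at the level of 3 counts. In WT cells IRX3 and IRX5 climb by day 2 and stay up, IRX4 dips to 2.47 and 2.62 CPM at day 6 before 37.1 and 78.6 CPM at day 10, and IRX1 and IRX2 decline.

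Levels of different members were compared per kb of exon. Their order and the cluster shares below assume that introns were not counted, and could differ otherwise. In WT cells at day 0 the order was IRX2 (12 CPM per kb), IRX1 (5.54), IRX4 (3.8), IRX5 (0.121), IRX3 (0.0902) and IRX6 (0.0316), and no neighbours in this order overlapped between libraries. At day 2 IRX2 still led with 8.13 CPM per kb, but IRX3 had moved to the second place with 4.95. At day 6 IRX3 led with 5.13 CPM per kb, while IRX5 (1.98), IRX1 (1.76) and IRX2 (1.63) overlapped with their neighbours in the order. At day 10 IRX4 (19.5 CPM per kb) and IRX3 (10.8) were the highest and overlapped with each other, followed by IRX5 (2.86), and IRX1 (1.34) and IRX2 (1.32) were not told apart.

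The order by level thus changed from chromosome 5 genes to chromosome 16 genes and back in part. Of the summed CPM per kb of the family, the chromosome 16 genes held 1.27% and 0.947% in the 2 WT libraries of day 0, 29.4% and 34.7% at day 2, 67.8% and 57.4% at day 6 and 42.5% and 36.4% at day 10. The share in NKX2-5 shRNA cells was 22.1% and 25.7% at day 2 and 11.6% and 10.4% at day 6, and in ZNF503 shRNA cells it was 7.54% and 7.46% at day 2 and 8.56% and 12.2% at day 6. In ZEB2 shRNA cells it was 33.2% and 33.7% at day 2, 37.3% and 39.3% at day 6 and 30.7% and 29.7% at day 10. The WT libraries were thus the only ones at day 6 in which the chromosome 16 genes held the greater part. At day 10 the shares of NKX2-5 shRNA cells, 36.9% and 55.7%, came from low sums, of 0.613 and 0.88 CPM per kb on chromosome 5 and 0.358 and 1.1 on chromosome 16.

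**Figure D2:**
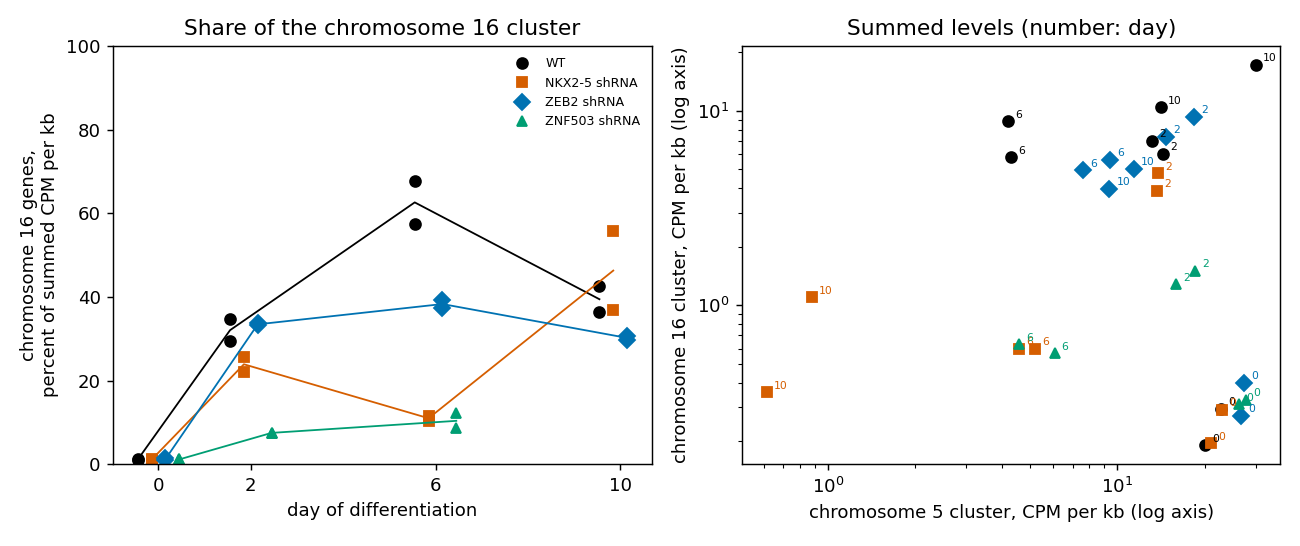
Left, share of the chromosome 16 genes IRX3, IRX5 and IRX6 in the summed CPM per kb of the family (percent) by day, a point per library and a line through group means. Right, summed CPM per kb of the chromosome 16 genes against that of the chromosome 5 genes IRX1, IRX2 and IRX4 (log axes), a point per library with its day written beside it: WT libraries of day 6 have 8.84 and 5.76 on chromosome 16, and NKX2-5 and ZNF503 shRNA libraries of day 6 lie between 0.567 and 0.631.

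The next comparison asks which members differed from WT in the NKX2-5 shRNA line. NKX2-5 is a homeodomain factor of the early heart. In WT cells it was at 0.213 and 0.419 CPM at day 0 and 0.193 and 0.245 CPM at day 2, so little of its RNA was present then. The cause of differences at these days was not tested. In NKX2-5 shRNA cells IRX3 and IRX5 appeared at day 2 but were low at day 6, IRX4 did not return at day 10, and IRX1 and IRX2 were low at day 10 as well. Against WT, no member changed at day 0 (0 of 5 tested, with 1 at an unadjusted p under 0.05, where 15.9% of all genes were called), 2 of 6 at day 2 (26.7%), 2 of 6 at day 6 (49.1%) and 5 of 6 at day 10 (43.9%). All of these were lower than in WT, as were 13.6%, 24.7% and 20.6% of all genes at days 2, 6 and 10. The median log2 fold change over the members was -0.39 at day 6 and -3.70 at day 10, and over all genes tested it was 0 and 0.03.

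IRX3 in NKX2-5 shRNA cells was at 0.18 and 0.233 CPM at day 0, 9 and 11 CPM at day 2, 0.772 and 0.701 CPM at day 6 (21 and 35 counts), and 0.0954 and 1.09 CPM at day 10 (2 and 23 counts). Its rise from day 0 to day 2 was 5.63 on the log2 scale (SE 0.79, adjusted p = 0.00206), and from day 2 to day 6 it fell by 3.78 (SE 0.71, adjusted p = 0.00343), where 28.3% and 47.9% of all genes changed. Both libraries lay below both WT libraries at days 2, 6 and 10. Against WT the difference was -0.57 at day 2 (SE 0.24, adjusted p = 0.0877), which did not pass, -4.36 at day 6 (SE 0.32, adjusted p = 4e-07) and -5.72 at day 10 (SE 0.77, adjusted p = 0.00146). The difference at day 2 passed with no filter on low counts (adjusted p = 0.0111) and with library totals in place of TMM (0.0472). The value at day 10 was -4.84 without NKX2-5 shRNA day 10 replicate 1 and -8.26 without replicate 2.

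IRX5 in these cells was at 0.282 and 0.448 CPM at day 0, 2.11 and 2.64 CPM at day 2, 0.735 and 0.581 CPM at day 6 (20 and 29 counts) and 0.191 and 1.04 CPM at day 10 (4 and 22 counts). It lay below WT without overlap from day 2 on. The difference from WT was -3.12 at day 6 (SE 0.32, adjusted p = 6.7e-06) and -3.70 at day 10 (SE 0.74, adjusted p = 0.00672), the latter -2.94 without NKX2-5 shRNA day 10 replicate 1 and -5.34 without replicate 2. At day 2 it was -0.83 (SE 0.24, adjusted p = 0.0214), and that call was lost without NKX2-5 shRNA replicate 1 (adjusted p = 0.179) or WT replicate 1 (0.0645) or 2 (0.106).

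IRX4 passed through days 0 to 6 in NKX2-5 shRNA cells much as in WT, with 11.9 and 11.6 CPM at day 0, 9.12 and 10.2 CPM at day 2 and 2.68 and 3.18 CPM at day 6. The difference at day 6 was 0.20 (SE 0.26, adjusted p = 0.554). At day 10, when WT cells held 37.1 and 78.6 CPM, it was at 0.859 and 1.37 CPM (18 and 29 counts), a difference of -5.68 (SE 0.49, adjusted p = 0.00033), which was -5.04 without WT day 10 replicate 4. Within the line IRX4 fell by 1.45 from day 6 to day 10 (SE 0.31, adjusted p = 0.00647, where 49.1% of all genes changed), a call lost without NKX2-5 shRNA day 6 replicate 2 (adjusted p = 0.0508).

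IRX2 was at 46.3 and 49.2 CPM at day 0, 31 and 30.2 CPM at day 2, 4.23 and 5.43 CPM at day 6 and 0.477 and 0.189 CPM at day 10 (10 and 4 counts). At day 10 it lay below every WT library, with a difference of -3.70 (SE 0.62, adjusted p = 0.00339). Without NKX2-5 shRNA day 10 replicate 1 this difference was -4.47, and without WT day 10 replicate 4 it was -3.10. IRX1 was at 6.98 and 9.72 CPM at day 0, 3.12 and 3.05 CPM at day 2, 5.04 and 5.25 CPM at day 6 and 0.382 and 0.756 CPM at day 10.

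IRX1 thus lay below WT at days 0, 2 and 10 and above it at day 6. The differences were -0.48 at day 0 (SE 0.19, adjusted p = 0.108, and 0.0303 without NKX2-5 shRNA day 0 replicate 2), -0.83 at day 2 (SE 0.23, adjusted p = 0.0148), 0.49 at day 6 (SE 0.29, adjusted p = 0.185) and -2.24 at day 10 (SE 0.61, adjusted p = 0.022). The call at day 2 was lost without NKX2-5 shRNA replicate 1 (adjusted p = 0.0794) or WT replicate 1 (0.0827) or 2 (0.0507). The call at day 10 was lost without NKX2-5 shRNA replicate 1 (adjusted p = 0.0502), ZEB2 shRNA replicate 3 (0.0532), which shares the estimate of the spread, or WT replicate 4 (0.118, with a value of -1.47). IRX6 was at 0.763 and 1.09 CPM at day 10 and did not pass against WT (0.90, SE 0.68, adjusted p = 0.312), but within the line it rose by 2.76 from day 0 (SE 0.62, adjusted p = 0.00468, where 69.2% of all genes changed).

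Markers of cell types moved with these results. All 8 cardiomyocyte markers were lower in NKX2-5 shRNA cells at days 6 and 10, and their summed level was 40.8 to 50.1 CPM at day 6 against 9230 to 11700 CPM in WT, and 61.2 to 376 CPM at day 10 against 15700 to 18900 CPM. All 9 markers of endoderm and liver were higher at both days, with sums of 3660 to 3790 CPM at day 6 against 372 to 765 CPM in WT, and 27200 to 38800 CPM at day 10 against 1480 to 3620 CPM. At day 10 all 8 blood markers were higher too, with sums of 1960 to 2290 CPM against 16.3 to 89.5 CPM. No marker of these lists was at 0 in both libraries at day 10. Their part in the Iroquois differences was not tested, and in bulk RNA fewer cells of a type and less RNA per cell cannot be told apart.

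The comparison with ZNF503 shRNA cells covers days 0, 2 and 6. ZNF503 is a zinc finger protein taken to act as a transcriptional repressor. Its gene was at 0.107 and 0.105 CPM in WT cells at day 0, so little of its RNA was present then. The cause of differences at that day was not tested. In ZNF503 shRNA cells IRX3 and IRX5 were low already at day 2, when WT cells first expressed them, and IRX4 was lower at day 6 in addition. Of the members tested, 1 of 5 changed at day 0 (7.53% of all genes), 3 of 6 at day 2 (26.9%) and 5 of 6 at day 6 (55.7%). The median log2 fold change of the members was 0.01 at day 2 and -1.85 at day 6, and that of all genes was -0.01 and -0.03.

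IRX3 in the libraries labelled ZNF503 shRNA was at 0.27 and 0.456 CPM at day 0, 2.53 and 1.21 CPM at day 2 (225 and 27 counts) and 0.56 and 0.851 CPM at day 6 (11 and 21 counts). The day 2 libraries lay above day 0 and far below the WT levels of 13.2 and 15.8 CPM. Against WT the difference was -2.88 at day 2 (SE 0.26, adjusted p = 1.8e-06), which was -3.59 without ZNF503 shRNA day 2 replicate 1, and -4.39 at day 6 (SE 0.34, adjusted p = 7.7e-07). Within the line IRX3 rose by 2.41 from day 0 to day 2 (SE 0.44, adjusted p = 0.00083, where 31.6% of all genes changed), a call lost without ZNF503 shRNA day 2 replicate 1 (adjusted p = 0.063, with a value of 1.78).

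IRX5 was at 0.405 and 0.387 CPM at day 0, 1.25 and 1.3 CPM at day 2 and 1.07 and 0.891 CPM at day 6 (21 and 22 counts). It lay below WT at both later days, by 1.74 on the log2 scale at day 2 (SE 0.25, adjusted p = 0.00015) and by 2.52 at day 6 (SE 0.32, adjusted p = 4.2e-05). IRX6 was at 0.27 and 0.0552 CPM at day 0 and 0.629 and 1.21 CPM at day 2, a difference from WT of 1.26 at day 2 (SE 0.56) that did not pass (adjusted p = 0.115). At day 6 IRX6 had 0 and 2 counts, so no library passed the limit of 3 counts, which over the group is 0.138 CPM, and the WT mean was at least 3.96-fold higher. The test called this difference (adjusted p = 0.00832), but not without ZNF503 shRNA day 6 replicate 1 (adjusted p = 0.0596).

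On chromosome 5, IRX4 in ZNF503 shRNA cells was at 14 and 11.3 CPM at day 0, 8.06 and 6.7 CPM at day 2 and 1.17 and 1.09 CPM at day 6 (23 and 27 counts). At day 6 it lay below both WT libraries, by 1.18 on the log2 scale (SE 0.30, adjusted p = 0.00546), and no left-out library ended this call. IRX2 was at 52.6 and 53.3 CPM at day 0, 40.2 and 34.4 CPM at day 2 and 8.19 and 8.02 CPM at day 6, above WT at each day without overlap. Its differences were small, at 0.36 (SE 0.10, adjusted p = 0.0455), 0.38 (SE 0.11, adjusted p = 0.0212) and 0.54 (SE 0.22, adjusted p = 0.049).

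The 3 calls of IRX2 rested on single libraries. The call at day 0 was lost without either ZNF503 shRNA library (adjusted p = 0.213 and 0.228) or either WT library (0.189 and 0.331), and the call at day 2 without ZNF503 shRNA replicate 1 (adjusted p = 0.198) or WT replicate 1 (0.0566) or 2 (0.147). The call at day 6 was lost without any 1 of the 8 libraries of that day (adjusted p = 0.0591 to 0.193). IRX1 was at 15.6 and 14.3 CPM at day 0, 8.37 and 7.38 CPM at day 2 and 6.77 and 3.81 CPM at day 6, and its difference of 0.52 at day 6 (SE 0.30) did not pass (adjusted p = 0.156), though it did without ZNF503 shRNA day 6 replicate 2 (0.0283).

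At day 2 the markers of pluripotent cells summed to 2790 to 2860 CPM in ZNF503 shRNA cells and 2260 to 2270 CPM in WT (3 of 4 tested were higher), and those of endoderm and liver to 27.4 to 37.1 CPM against 109 to 118 CPM (3 of 4 tested were lower). At day 6 the 8 cardiomyocyte markers were all lower, with sums of 160 to 219 CPM, and 8 of 9 markers of endoderm and liver were higher, with sums of 2990 to 3070 CPM. At day 6 no marker of these lists was at 0 in both libraries. Their part in the Iroquois differences was not tested.

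ZEB2, a zinc finger factor that binds E-boxes, was reduced less at day 6 than the other targets were in their own lines. At day 0 the ZEB2 gene had 0 and 9 counts in the WT libraries, so little of its RNA was present. The cause of differences at that day was not tested. In ZEB2 shRNA cells IRX3 and IRX5 came on as in WT, IRX1 and IRX2 were higher at day 6, and the return of IRX4 at day 10 was smaller. Against WT, 1 of 5 members changed at day 0 (3.93% of all genes), 0 of 6 at day 2 (1 at an unadjusted p under 0.05, where 0.49% of all genes were called), 2 of 6 at day 6 (11%) and 1 of 6 at day 10 (18.2%). The median of the members was 0.86 at day 6 and -0.35 at day 10, and that of all genes was 0.01 and 0.03.

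IRX4 in ZEB2 shRNA cells was at 14.9 and 13.2 CPM at day 0, 7.33 and 11.9 CPM at day 2, 4.53 and 4.94 CPM at day 6 and 17.2 and 12.5 CPM at day 10. It lay above both WT libraries at day 6 and below both at day 10, with NKX2-5 shRNA cells lower still. At day 6 the difference of 0.89 (SE 0.26) fell just short of the threshold (adjusted p = 0.0509), and it passed in edgeR's exact test (adjusted p = 0.00966), with no filter on low counts (0.0437), with library totals in place of TMM (0.0488) and without ZNF503 shRNA replicate 1 (0.0447) or 2 (0.045). At day 10 it was -1.96 (SE 0.40, adjusted p = 0.017), a call lost without ZEB2 shRNA replicate 3 (adjusted p = 0.09) or 4 (0.144) or WT replicate 4 (0.108, with a value of -1.31). Within the line IRX4 rose from day 6 to day 10 by 1.66 (SE 0.25, adjusted p = 5.3e-05, where 63.3% of all genes changed).

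IRX1 in this line was at 13.8 and 11.2 CPM at day 0, 6.34 and 9.29 CPM at day 2, 10 and 6.86 CPM at day 6 and 7.91 and 5.89 CPM at day 10. It fell by 0.71 from day 0 to day 2 (SE 0.24, adjusted p = 0.0227), a call lost without ZEB2 shRNA day 0 replicate 1 (adjusted p = 0.216) or ZEB2 shRNA day 2 replicate 1 (0.183), but from day 2 on its libraries lay above those of WT. At day 6 IRX1 was higher by 1.24 (SE 0.29, adjusted p = 0.0158), a call lost without ZEB2 shRNA replicate 1 (adjusted p = 0.188) or WT replicate 2 (0.0686). At day 10 the difference of 1.34 (SE 0.55) did not pass (adjusted p = 0.132), and it passed when replicate 1 or 2 of the more variable NKX2-5 shRNA cells was left out of the fit (adjusted p = 0.0321 and 0.0333).

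IRX2 was at 53.5 and 57.7 CPM at day 0, 31.3 and 33.7 CPM at day 2, 10.4 and 9.07 CPM at day 6 and 6.09 and 7.89 CPM at day 10. Every ZEB2 shRNA library lay above every WT library of its day. The difference was 0.41 at day 0 (SE 0.10, adjusted p = 0.039) and 0.83 at day 6 (SE 0.21, adjusted p = 0.0272). Both calls were fragile, the first lost without any 1 of the ZEB2 shRNA, ZNF503 shRNA or WT libraries (adjusted p = 0.081 to 0.395) and the second without any 1 of the ZEB2 shRNA or WT libraries (0.0556 to 0.174).

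IRX3 in ZEB2 shRNA cells was at 0.537 and 0.362 CPM at day 0, 15.5 and 21.2 CPM at day 2, 10.3 and 8.26 CPM at day 6 and 9.48 and 8.4 CPM at day 10. It overlapped with WT at day 2 and lay below both WT libraries at days 6 and 10. Within the line IRX3 rose by 5.28 from day 0 to day 2 (SE 0.27, adjusted p = 2.2e-09, where 56.9% of all genes changed) and fell by 0.97 from day 2 to day 6 (SE 0.22, adjusted p = 0.00212, where 48.7% did). Against WT the difference was -0.67 at day 6 (SE 0.26, adjusted p = 0.135), which passed without WT day 6 replicate 2 (adjusted p = 0.0337) or with no filter on low counts (0.0484), and -1.83 at day 10 (SE 0.61, adjusted p = 0.0777), which passed in DESeq2 (adjusted p = 0.0177), in edgeR's exact test (0.026) and when NKX2-5 shRNA replicate 1 or 2 was left out of the fit (adjusted p = 0.00116 and 0.00115).

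IRX5 was at 0.47 and 0.287 CPM at day 0, 5.54 and 5.66 CPM at day 2, 4.64 and 3.91 CPM at day 6 and 4.48 and 2.39 CPM at day 10. At day 10 both libraries lay below WT, but the difference of -1.24 (SE 0.64) did not pass (adjusted p = 0.219), and it passed without NKX2-5 shRNA replicate 1 (adjusted p = 0.0337) or 2 (0.0348). IRX6 was at 0.157 and 0.136 CPM at day 0, 0.303 and 0.387 CPM at day 2, 1.33 and 2.21 CPM at day 6 and 0.68 and 0.768 CPM at day 10. At day 6 it lay above WT without overlap but did not pass (1.66, SE 0.55, adjusted p = 0.0758, and 0.00915 in edgeR's exact test and 0.0333 with no filter on low counts), and within the line it rose from day 2 to day 6 by 2.26 (SE 0.47, adjusted p = 0.00124).

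Of the 8 cardiomyocyte markers, 5 were lower in ZEB2 shRNA cells at day 6 (sums of 5150 to 5630 CPM) and 2 at day 10 (4520 to 6450 CPM), so these cells kept far more of this RNA than the other lines. At day 10, 7 of 9 markers of endoderm and liver were higher, with sums of 6520 to 7890 CPM. The part of these cell types in the Iroquois differences was not tested.

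**Figure D3:**
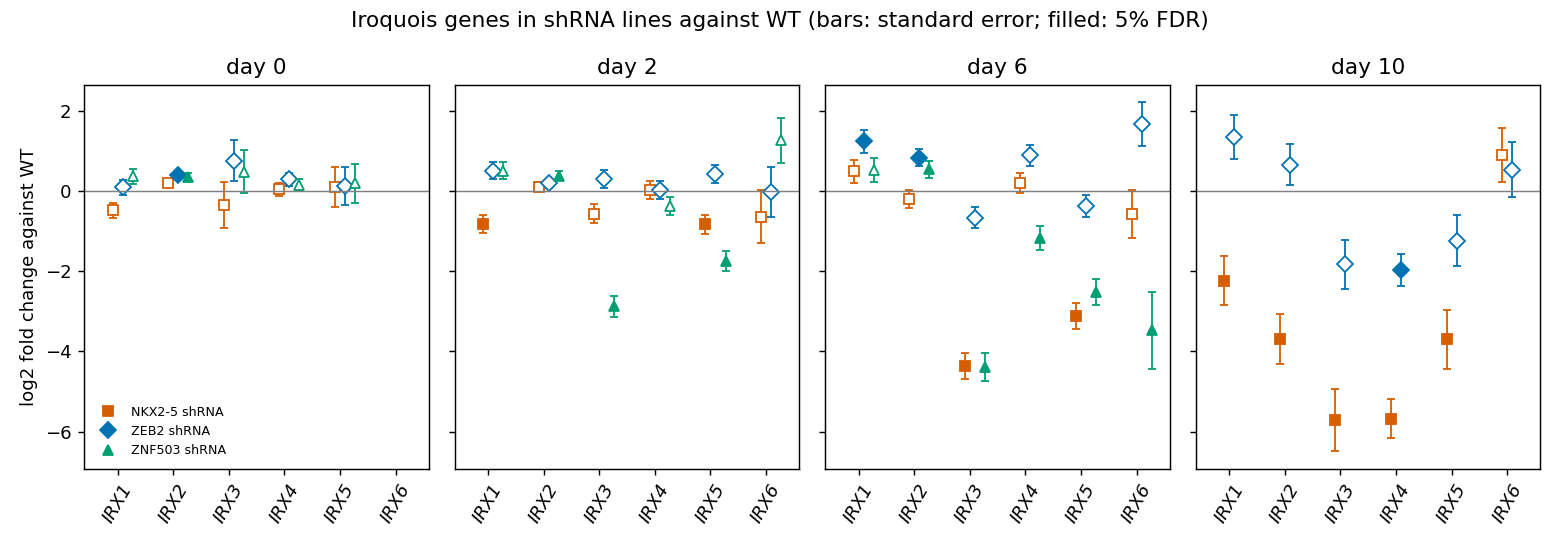
Log2 fold change of each Iroquois gene in shRNA cells against WT at days 0, 2, 6 and 10, with bars for the standard error and filled symbols for 5% FDR. IRX3 and IRX5 lie lowest in ZNF503 shRNA cells at day 2 and in NKX2-5 shRNA cells at day 6, IRX3 lies lowest in ZNF503 shRNA cells at day 6, and 5 of 6 members are lower in the NKX2-5 shRNA line at day 10. IRX6 was not tested at day 0, and its fitted value in ZNF503 shRNA cells at day 6 is against a group at the limit of detection.

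Differences between the shRNA lines were tested directly. At day 2, NKX2-5 shRNA cells exceeded ZNF503 shRNA cells in IRX3 by 2.31 on the log2 scale (SE 0.26, adjusted p = 9e-06, and 3.02 without ZNF503 shRNA day 2 replicate 1) and in IRX5 by 0.91 (SE 0.25, adjusted p = 0.0111), and were lower in IRX1 by 1.33 (SE 0.22, adjusted p = 0.00023), with 4 of 6 members called where 39.5% of all genes were. IRX6 was lower too (-1.90, SE 0.55, adjusted p = 0.0132), though not without NKX2-5 shRNA replicate 1 (adjusted p = 0.12) or ZNF503 shRNA replicate 2 (0.11). The IRX5 call was lost without NKX2-5 shRNA replicate 2 (adjusted p = 0.0709) or ZNF503 shRNA replicate 1 (0.0906). At day 6 IRX4 was higher in NKX2-5 than in ZNF503 shRNA cells by 1.38 (SE 0.29, adjusted p = 0.00966), which was lost without NKX2-5 shRNA replicate 2 (adjusted p = 0.0777). The difference in IRX5 at day 6 was -0.59 (SE 0.37, adjusted p = 0.297), and 2 of 6 members were called where 14.7% of all genes were. The other was IRX2 (-0.74, SE 0.22, adjusted p = 0.0398), a call lost without any 1 of the NKX2-5, ZEB2 or ZNF503 shRNA libraries (adjusted p = 0.0587 to 0.269).

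At day 0 IRX1 was lower in NKX2-5 shRNA cells than in ZEB2 shRNA cells (-0.56, SE 0.19, adjusted p = 0.036, where 31.2% of all genes were called) and ZNF503 shRNA cells (-0.84, SE 0.19, adjusted p = 0.00677, where 25.8% were). The first call was lost without NKX2-5 shRNA replicate 1 (adjusted p = 0.189), ZEB2 shRNA replicate 1 (0.225) or ZNF503 shRNA replicate 1 (0.0575) or 2 (0.0572), and the second without ZNF503 shRNA replicate 1 (0.064). Between ZEB2 and ZNF503 shRNA cells at day 0 edgeR called 0 of 5 members, with 0 at an unadjusted p under 0.05, and 25.5% of all genes.

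ZEB2 shRNA cells stood apart from both other lines. At day 2 they exceeded ZNF503 shRNA cells in IRX3 by 3.18 (SE 0.26, adjusted p = 5.1e-07, and 3.89 without ZNF503 shRNA day 2 replicate 1) and in IRX5 by 2.16 (SE 0.24, adjusted p = 1.3e-05), the 2 of 6 members called where 29.3% of all genes were. They exceeded NKX2-5 shRNA cells in 3 of 6 members, where 23.2% of all genes were called, and the differences of NKX2-5 from ZEB2 shRNA cells were -1.33 for IRX1 (SE 0.22, adjusted p = 0.00069), -1.25 for IRX5 (SE 0.23, adjusted p = 0.00175) and -0.87 for IRX3 (SE 0.23, adjusted p = 0.0147). The last was lost without NKX2-5 shRNA replicate 1 (adjusted p = 0.124) or ZEB2 shRNA replicate 2 (0.132). At day 6 all 6 members were lower in NKX2-5 than in ZEB2 shRNA cells (44.4% of all genes were called and 23.1% were lower), led by IRX3 with -3.69 (SE 0.32, adjusted p = 1.8e-06) and IRX5 with -2.75 (SE 0.32, adjusted p = 2.4e-05). The calls of IRX1, IRX4 and IRX6 were lost without single libraries, namely NKX2-5 shRNA replicate 1 (adjusted p = 0.154 for IRX1, 0.238 for IRX4 and 0.056 for IRX6), NKX2-5 shRNA replicate 2 (0.134 for IRX1 and 0.11 for IRX4), ZEB2 shRNA replicate 1 (0.383 and 0.113) and, for IRX4 alone, ZEB2 shRNA replicate 2 (0.147) or WT replicate 1 (0.054) or 2 (0.0551). ZEB2 shRNA cells exceeded ZNF503 shRNA cells in IRX3 by 3.71 (SE 0.34, adjusted p = 3.8e-06), in IRX4 by 2.07 (SE 0.29, adjusted p = 0.00012) and in IRX5 by 2.15 (SE 0.33, adjusted p = 0.0002), and IRX6 was at least 12.9-fold higher, with 4 of 6 called where 49.2% of all genes were. At day 10 the difference of NKX2-5 from ZEB2 shRNA cells was -3.72 for IRX4 (SE 0.46, adjusted p = 0.00374) and -4.35 for IRX2 (SE 0.62, adjusted p = 0.0056), 5 of 6 members were lower, and 21.3% of all genes were called and 10.8% were lower. Of these, IRX1 (-3.58) and IRX3 (-3.90) lost the call without ZEB2 shRNA replicate 3 (adjusted p = 0.0853 and 0.0746) or 4 (0.0532 and 0.0615). IRX5 (-2.47) lost it without NKX2-5 shRNA replicate 1 (adjusted p = 0.0508), ZEB2 shRNA replicate 3 (0.253) or 4 (0.129), or WT replicate 3 (0.0935) or 4 (0.0954). Without NKX2-5 shRNA replicate 1 the values were -5.16 for IRX2, -3.03 for IRX3 and -1.73 for IRX5, and without replicate 2 they were -6.45 for IRX3 and -4.13 for IRX5.

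The change from WT was also compared between days. From day 2 to day 6 the difference from WT moved for 3 of 6 members in NKX2-5 shRNA cells (46% of all genes), 2 of 6 in ZNF503 shRNA cells (48.2%) and 0 of 6 in ZEB2 shRNA cells (5.89%, with 4 members at an unadjusted p under 0.05 in edgeR). From day 6 to day 10 it moved for 3 of 6 in NKX2-5 shRNA cells (25%) and 1 of 6 in ZEB2 shRNA cells (6.29%). In NKX2-5 shRNA cells IRX3 and IRX5 moved in the first interval and IRX2 and IRX4 in the second, and IRX1 moved up in the first and down in the second.

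Within the shRNA lines the remaining steps were as follows. Of the members, 3 of 6 changed in NKX2-5 shRNA cells from day 0 to day 2 (28.3% of all genes), 4 of 6 from day 2 to day 6 (47.9%) and 3 of 6 from day 6 to day 10 (49.1%), and 2 of 6 from day 0 to day 6, where 55.5% of all genes did. In ZEB2 shRNA cells 5 of 6, 4 of 6 and 3 of 6 changed at these steps, against 56.9%, 48.7% and 63.3% of all genes, and 5 of 6 both from day 0 to day 6 (63.3% of all genes) and from day 0 to day 10 (78.1%). In ZNF503 shRNA cells 6 of 6 changed from day 0 to day 2 (31.6% of all genes), 5 of 6 from day 2 to day 6 (65.9% of all genes) and 4 of 6 from day 0 to day 6 (68.4%). Each of the 6 calls from day 0 to day 2 was lost when some single library was left out, and that of IRX6 also in DESeq2 (adjusted p = 0.0594). IRX2 fell from day 2 to day 6 in each line, by 2.67 in NKX2-5 shRNA cells (SE 0.25, adjusted p = 0.00012), 1.73 in ZEB2 shRNA cells (SE 0.16, adjusted p = 4.5e-07) and 2.22 in ZNF503 shRNA cells (SE 0.14, adjusted p = 5.1e-09).

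The study's own thresholds were stricter in size: the fold had to reach 2 at day 0, 4 at day 2 and 8 later on, with 10% FDR allowed up to day 2 and 1% from day 6. By these no member was called at day 0, where 4.03% of all genes were in NKX2-5, 2.2% in ZEB2 and 2.56% in ZNF503 shRNA cells. At day 2 IRX3 alone was called, in ZNF503 shRNA cells (2.8% of all genes), and none in NKX2-5 (1.19%) or ZEB2 shRNA cells (0.133%). At day 6 IRX3 and IRX5 were called in NKX2-5 shRNA cells (4.71%), IRX3 and IRX6 in ZNF503 shRNA cells (3.91%) and none in ZEB2 shRNA cells (0.462%). The call of IRX6 rests on a fitted value that depends on the prior count, since the counts were 0 and 2 and bound the difference only at 3.96-fold, below the fold of 8, and at 5% FDR it was lost without ZNF503 shRNA day 6 replicate 1 (adjusted p = 0.0596). At day 10 IRX2, IRX3, IRX4 and IRX5 were called in NKX2-5 shRNA cells (7.31%) and none in ZEB2 shRNA cells (1.46%).

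IRX3 and IRX5 varied together. Over the 15 group means of log2(CPM + 1), Pearson's r was 0.984 between them and 0.804 between IRX1 and IRX2, while IRX4 had no such partner (0.338 with IRX3, 0.345 with IRX1 and 0.441 with IRX2). These values describe groups that share lines and days and that differ in depth.

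**Figure D4:**
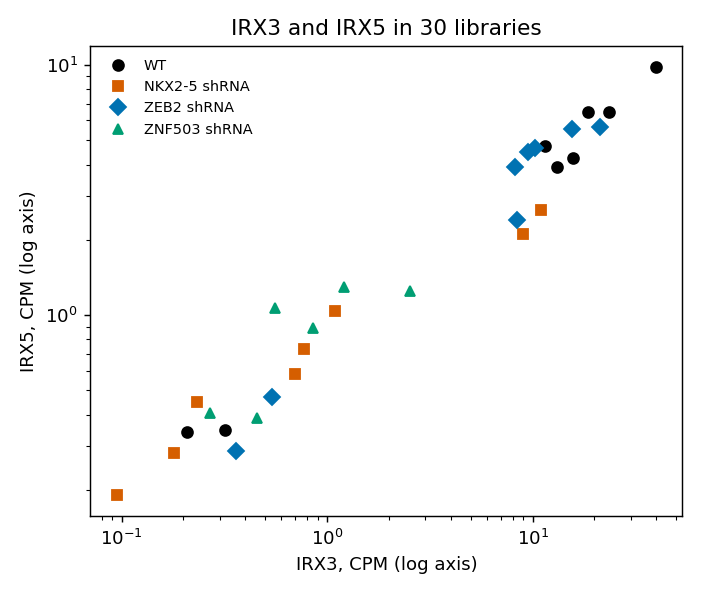
IRX5 against IRX3 (CPM, log axes) with a point for each of the 30 libraries. The upper right holds the day 2 libraries of all but the ZNF503 shRNA line and the later WT and ZEB2 shRNA libraries, all at 8.26 CPM of IRX3 or more. The other libraries are at 2.53 CPM of IRX3 or less.

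Among 17031 genes that reached a group mean of 1 CPM in some group, the genes most like each member by the same measure were found. For IRX5 they were KCNJ5 (0.979), ZNF608 (0.95) and ODAD4 (0.938), and for IRX3 they were KCNJ5 (0.962), ODAD4 (0.956) and APCDD1L-DT (0.953). KCNJ5, which encodes the GIRK4 potassium channel, was at 0.107 and 0.105 CPM in WT cells at day 0, 10.8 and 12.7 CPM at day 2, 41 and 28.1 CPM at day 6 and 41.1 and 51.5 CPM at day 10. It was at 1.72 and 1.98 CPM in ZNF503 shRNA cells at day 2 and at 0.221 and 0.441 CPM in NKX2-5 shRNA cells at day 6. For IRX4 they included KCNN1 (0.957), a small-conductance potassium channel, and ZBTB25 (0.926), and KCNN1 was at 2.69 and 3.42 CPM in WT cells at day 6 and 29.9 and 45.8 CPM at day 10.

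For the other members the closest genes included TFAP4 (0.938) and CBX2 (0.879) for IRX1, and SNORD108 (0.974) and TTF1 (0.972) for IRX2. IRX6 had KRT16P1 (0.823), SNORD17 (0.821) and CEP126 (0.819), at levels where few counts decide the value.

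Genes near the clusters were examined to see how far the pattern reached. Of the genes in the count table, 36 lie within 1 Mb of a member, and 22 to 24 of them were tested against WT at days 2 to 10. With NKX2-5 shRNA 4 were higher and 7 lower at day 6 (of 23, where 49.1% of all genes were called) and 7 were higher and 3 lower at day 10 (of 22, against 43.9%). In ZNF503 shRNA cells 4 were higher and 2 lower at day 2 (of 24, against 26.9%) and 5 were higher and 7 lower at day 6 (of 23, against 55.7%), and in ZEB2 shRNA cells 1 was higher and 0 lower at day 6 (11% of all genes) and 6 were higher and 1 lower at day 10 (18.2%). With NKX2-5 and ZNF503 shRNA these counts were near the share of all genes. The nearest of these to IRX5 is CRNDE, a long noncoding RNA gene on the other strand whose start lies 1676 bases away, at chr16:54879101-54963101.

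CRNDE was at 1.76 and 1.94 CPM in WT cells at day 0, 12.7 and 13.4 CPM at day 2, 24.9 and 16.2 CPM at day 6 and 24.7 and 22.4 CPM at day 10. In ZNF503 shRNA cells it was at 5.95 and 5.71 CPM at day 2 and 8.8 and 11.3 CPM at day 6, and in NKX2-5 shRNA cells at 17.4 and 16.1 CPM at day 2, 7.9 and 7.19 CPM at day 6 and 2.77 and 4.73 CPM at day 10. ZEB2 shRNA cells held 14.8 and 18.4 CPM at day 2, 25.1 and 21.2 CPM at day 6 and 9.58 and 10.9 CPM at day 10. At day 2 the NKX2-5 shRNA libraries thus lay above those of WT, unlike those of IRX5 (difference 0.33, SE 0.16, adjusted p = 0.132), and from day 2 to day 6 CRNDE rose in the ZNF503 line by 0.77 (SE 0.22, adjusted p = 0.00588) and in the ZEB2 line by 0.48 (SE 0.18, adjusted p = 0.0376), steps at which IRX5 did not pass. CRNDE rose in WT cells from day 0 to day 2 by 2.86 (SE 0.24, adjusted p = 1.2e-05). It was lower than in WT in ZNF503 shRNA cells at day 2 (-1.21, SE 0.16, adjusted p = 7.3e-05) and day 6 (-1.03, SE 0.22, adjusted p = 0.00206) and in NKX2-5 shRNA cells at day 6 (-1.45, SE 0.22, adjusted p = 0.00018) and day 10 (-2.65, SE 0.33, adjusted p = 0.00117), and in ZEB2 shRNA cells at day 10 (-1.21, SE 0.31, adjusted p = 0.037). The RNA kit marks strand, but whether counting used it is not given in the sources used here, so reads of IRX4 and of the antisense gene IRX4-AS1 that overlaps it could not be told apart.

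Regulators beside which Iroquois genes act in the heart were lower along with IRX3 and IRX5. Of 8 listed (NKX2-5, HAND1, HAND2, GATA4, TBX5, TBX20, MEF2C and ISL1), 7 were lower and 1 higher than WT at day 6 in both NKX2-5 and ZNF503 shRNA cells (where 49.1% and 55.7% of all genes were called), with medians of -5.10 and -4.38. In NKX2-5 shRNA cells the 7 and the median include the targeted gene NKX2-5 itself, whose lower level there was set by the knockdown. The higher one was GATA4 (0.54 and 0.82, SE 0.12 in both). In ZEB2 shRNA cells 3 were lower and 1 higher at day 6 (11% of all genes), and 3 lower and 1 higher at day 10 (18.2%), and the higher one at both days was HAND1 (0.83, SE 0.16 and 1.59, SE 0.19). At day 2, 3 of 7 tested were lower in ZNF503 shRNA cells (26.9% of all genes were called), namely GATA4 (-1.90, SE 0.17), TBX20 (-1.36, SE 0.26) and ISL1 (-2.98, SE 0.37), and TBX5 was higher (2.98, SE 0.51).

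Chamber genes were set beside IRX4. Of 5 ventricular genes listed, MYL2 had at most 8 counts in any library and was not tested. Of the 4 others, 3 were lower and 1 higher in NKX2-5 shRNA cells at days 6 and 10 (49.1% and 43.9% of all genes) and in ZNF503 shRNA cells at day 6 (55.7%), and the higher one was NPPB, a natriuretic peptide gene. MYL3, the ventricular essential light chain, was at 83.1 and 68.3 CPM in WT cells at day 6 and 854 and 670 CPM at day 10, and at 149 and 96.9 CPM in ZEB2 shRNA cells at day 10 (-2.64, SE 0.43, adjusted p = 0.00851) and 26.7 and 64.7 CPM in NKX2-5 shRNA cells (-4.06, SE 0.46, adjusted p = 0.00082). In ZEB2 shRNA cells 2 of 4 were lower at day 10 (18.2% of all genes were called), MYL3 and MYH7 (-1.83, SE 0.35). Of 8 atrial genes, 4 were lower and 2 higher in NKX2-5 shRNA cells at day 6 (49.1% of all genes) and 1 was lower and 3 higher in ZEB2 shRNA cells at day 10 (18.2%). Their summed level, in which abundant genes weigh most, was nonetheless below WT. At day 10 it was 1630 to 2080 CPM in ZEB2 and 118 to 295 CPM in NKX2-5 shRNA cells, against 4000 to 5020 CPM. At day 6 it was 65.4 to 79.7 CPM in NKX2-5 and 227 to 285 CPM in ZNF503 shRNA cells, against 3310 to 4440 CPM.

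A further list held genes with a link to Iroquois factors in the heart, and some of them, such as RXRA and VDR, need not respond to these factors. Of the 10 genes listed, 9 were tested, and they did not move one way. In NKX2-5 shRNA cells 3 were higher and 3 lower at day 6 (49.1% of all genes were called) and 4 higher and 2 lower at day 10 (43.9%), in ZNF503 shRNA cells 4 were higher and 3 lower at day 6 (55.7%), and in ZEB2 shRNA cells 0 were higher and 2 lower at day 6 (11%) and 2 of each at day 10 (18.2%). KCNIP2, a subunit of the channels that carry the transient outward current, was lower in NKX2-5 shRNA cells (-3.35, SE 0.31 at day 6 and -3.84, SE 0.42 at day 10), ZNF503 shRNA cells (-3.29, SE 0.32 at day 6) and ZEB2 shRNA cells (-1.84, SE 0.28 at day 6 and -2.41, SE 0.39 at day 10). GJA1, the gap junction gene for connexin 43, was higher in NKX2-5 shRNA cells by 2.40 at day 6 (SE 0.24) and 2.30 at day 10 (SE 0.26), in ZNF503 shRNA cells by 2.23 at day 6 (SE 0.24) and in ZEB2 shRNA cells by 2.09 at day 10 (SE 0.26).

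Of the other TALE homeobox genes, 11 of 12 listed were tested at day 6. In NKX2-5 shRNA cells 1 was higher and 6 lower (49.1% of all genes were called), in ZNF503 shRNA cells 2 were higher and 5 lower (55.7%), and in ZEB2 shRNA cells 0 were higher and 2 lower (11%). MEIS2, a cofactor of homeodomain proteins, differed from WT by -4.39 (SE 0.22) in NKX2-5 shRNA cells and -3.62 (SE 0.21) in ZNF503 shRNA cells, and IRX3 differed by -4.36 and -4.39.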

How the data were processed

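RNA was extracted from H1 cells and made into libraries with a stranded total RNA kit. The authors mapped reads to hg19 (GRCh37) with TopHat2 2.0.14 and Bowtie2 2.2.1.0, allowing 2 mismatches and keeping 1 best hit, and deposited raw read counts per RefSeq transcript made with RSeQC 2.6.1, and the submitters' processing notes also name SAMtools 0.1.19.0. Of 41627 accessions, 40285 (96.8%) matched a symbol, and the accession with the largest total was kept per gene. From the 34 libraries, 30 were used. The 4 columns of replicates 1 and 2 at day 10 in the WT and ZEB2 shRNA lines were left out, because they held 42704 values, 1077 more than the accessions, and did not line up with replicates 3 and 4. Counts were tested with the quasi-likelihood test of edgeR 4.0.16 in R 4.3.3 (TMM scaling, low counts filtered with filterByExpr), with 1 fit per day for differences between lines and 1 per line for differences between days, and p-values were adjusted by the Benjamini-Hochberg method over all genes. The procedure was run on simulated counts in which all genes had the same spread and changes were planted only above a minimum level. The real libraries differ from this setting, so the run does not cover calls on low counts. Interactions were tested in fits of 2 days. Log2 fold changes used a prior count of 0.125. Total counts ranged from 9189943 to 90814577. Alternatives were RLE size factors, library totals alone, no filter on low counts, a replicate block, the second RefSeq transcript, edgeR's exact test, DESeq2 1.42.0, 1 fit of all libraries, the study's thresholds, and each library left out in turn. Named genes were the 6 members, genes within 1 Mb of them, the 3 genes most like each member, and the targeted genes, some of which are not reported here. Genes named from the lists were picked after their values were seen. Members and lists were chosen with earlier results of these data known. Promoter sequences are from RefSeq.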

Additional observations from a re-analysis of the deposited data

Results flagged for a closer look

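In 9 cases the difference of an shRNA line from WT was itself different between consecutive days by edgeR's test of the interaction, with adjustment over all genes. The values are changes of the log2 fold change against WT. From day 2 to day 6 in NKX2-5 shRNA cells, IRX1 moved by 1.31 (SE 0.38, adjusted p = 0.0102), IRX3 by -3.80 (SE 0.44, adjusted p = 3e-06) and IRX5 by -2.30 (SE 0.38, adjusted p = 0.0001). In the same interval in ZNF503 shRNA cells, IRX3 moved by -1.49 (SE 0.49, adjusted p = 0.0183), a call lost without ZNF503 shRNA day 2 replicate 1 (adjusted p = 0.265, with a value of -0.80), ZNF503 shRNA day 6 replicate 1 (0.0889), WT day 2 replicate 1 (0.0545) or WT day 6 replicate 1 (0.0714). IRX6 moved by -4.76 (SE 1.10, adjusted p = 0.00195) in ZNF503 shRNA cells, a fitted value that depends on the prior count because both day 6 libraries were below 3 counts, and that was -3.96 without ZNF503 shRNA day 6 replicate 1 and -8.61 without replicate 2. From day 6 to day 10 in NKX2-5 shRNA cells, IRX1 moved by -2.69 (SE 0.65, adjusted p = 0.0135), IRX2 by -3.49 (SE 0.62, adjusted p = 0.00317) and IRX4 by -5.88 (SE 0.54, adjusted p = 0.00011). Without WT day 10 replicate 4 these were -1.99 for IRX1 and -5.28 for IRX4, without WT day 10 replicate 3 IRX1 was at -3.30, and without NKX2-5 shRNA day 10 replicate 1 IRX2 was at -4.26. In ZEB2 shRNA cells IRX4 moved by -2.87 (SE 0.49, adjusted p = 0.0107), or -2.19 without WT day 10 replicate 4, a call lost without ZEB2 shRNA day 6 replicate 1 (adjusted p = 0.0507), WT day 6 replicate 2 (0.0562) or ZEB2 shRNA day 10 replicate 4 (0.0607).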

How the results depend on the processing

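No called value changed sign in any setting. Of 2523 values of single genes under the alternatives, 2288 kept their direction and their side of the threshold, 200 lost it and 35 gained it, and of 130 called values 50 lost the call in at least 1 setting. A call here is 1 Iroquois gene in 1 comparison. Calls were summed over all comparisons of a kind, so a gene can count more than once. The share of all genes called in each comparison stands with the results above, and for the alternatives it is not given here. Counts of these calls were 2 against WT at day 0, 5 at day 2, 9 at day 6 and 6 at day 10, and between lines 2, 9, 12 and 5. Over time they were 18 in WT, 16 in NKX2-5, 22 in ZEB2 and 15 in ZNF503 shRNA cells, and for interactions 5 (day 2 to 6) and 4 (day 6 to 10). The study's thresholds gave 0, 1 and 4 against WT at days 0, 2 and 6, 0, 3, 3 and 3 between lines, 8, 9, 8 and 4 over time and 2 and 2 for interactions. With 1 fit of all libraries there were 0, 2 and 10 against WT at days 0, 2 and 10 and 0 and 5 between lines at days 0 and 2. The second RefSeq transcript gave 0 at day 0. With the replicate number as a replicate block there were 0 against WT and 1 between lines at day 0, IRX3, IRX5 and IRX1 were called in ZEB2 shRNA cells at day 10 (adjusted p = 0.000228, 0.0336 and 0.0264), and other counts stayed within 1.5 times.

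Same-numbered libraries had deviations correlated at -0.173 to 0.213, so they were taken to share only a number. A crossed block at day 10, chosen after seeing the data, gave 10187 calls in NKX2-5 and 6778 in ZEB2 shRNA cells out of 17004 genes, against 7460 and 3100 without it, and called 5 and 4 members, against 5 and 1. Leaving out 1 library at a time gave 0 to 3, 2 to 5, 6 to 10 and 4 to 9 calls against WT at days 0, 2, 6 and 10, 0 to 2, 7 to 10, 8 to 12 and 2 to 5 between lines, 16 to 21, 13 to 22, 19 to 21 and 10 to 14 over time, and 4 to 7 and 3 to 5 for interactions. A group left with 1 library was taken to vary like the others. Depth limits IRX6 most, with 470 counts in all.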
